A study of Mus musculus with 4 samples.

Results

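Among the CD45high cells sorted from ischemic mouse brain hemispheres, 280 of 10925 deposited cell barcodes held both cell division transcripts and the transcripts of complement C1q, the signature product of microglia and tissue macrophages. These cells, called members here, were chosen by 4 limits on unique molecular identifiers (UMIs, which count captured RNA molecules). A member had 3 or more UMIs summed over Mki67, Top2a, Birc5, Ube2c and Cdk1, and 10 or more over C1qa, C1qb and C1qc. It also had fewer than 3 over Cd3d, Cd3e, Cd3g and Trac, the T cell genes, and fewer than 3 over Cd79a, Cd79b and Ms4a1, the B cell genes. Barcodes needed 200 or more detected genes and at most 10% mitochondrial UMIs, which 10841 met. Of these, 4484 were C1q-high cells (the same limits without the division genes), and the 3509 C1q-high cells with no UMI of the 5 division genes served as comparison cells. The other 695 C1q-high cells had 1 or 2 such UMIs and stayed out of both sets.

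The animals were C57/BL6 mice subjected to transient middle cerebral artery occlusion (tMCAO), a model of ischemic stroke in which a brain artery is blocked and then reopened. The day 14 group (14 days after tMCAO) and the day 5 group (5 days) each had 2 libraries of droplet-based 3' single-cell RNA counts. All groups shared the strain, the injury, the saline perfusion and the CD45high gate, a gate that favours infiltrated and activated leukocytes over microglia with low CD45. The sex and age of the mice and the number pooled into a library are not given in the sources used here, and no uninjured animal was analysed. P-values therefore measure the spread between libraries, which may be partly technical. The libraries held 9288054 to 13610119 UMIs over 2313 to 3486 barcodes, with median depths of 2882 to 4230 UMIs over all deposited barcodes. At most 16 barcodes were shared by any pair of libraries, and none of these was a member in both.

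C1q is the recognition subunit of the classical complement pathway, and in the brain its 3 chains are made mainly by microglia. Microglia and macrophages can divide in the tissue, driven largely by CSF1 receptor signalling, and microglial division is a known response to brain ischemia. The division program runs in waves. E2F factors switch on DNA replication genes as cells enter S phase, and the MuvB complex with B-Myb and FOXM1 then switches on mitotic genes through the CHR element, often beside CCAAT boxes bound by NF-Y.

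The promoters of the genes that define the members, and of a replication gene, are shown because they carry those elements. The sequences are from RefSeq (GRCm38.p6), 5′ to 3′ on the gene's strand, from 250 bases before to 50 after the annotated start. Capitals mark matches on either strand to 3 motifs. These are the CHR (TTTGAA), the CCAAT box (CCAAT) and the E2F site (TTTGGCGC, TTTCGCGC or TTTCCCGC). Top2a, topoisomerase II alpha, lies at chr11:99024140-99024439 on the minus strand. Cdk1, the mitotic kinase, lies at chr10:69352863-69353162 on the minus strand. Ube2c, a ubiquitin-conjugating enzyme of the anaphase-promoting complex, lies at chr2:164769679-164769978 on the plus strand. Mcm5, a subunit of the replicative helicase, lies at chr8:75109259-75109558 on the plus strand.
Top2a: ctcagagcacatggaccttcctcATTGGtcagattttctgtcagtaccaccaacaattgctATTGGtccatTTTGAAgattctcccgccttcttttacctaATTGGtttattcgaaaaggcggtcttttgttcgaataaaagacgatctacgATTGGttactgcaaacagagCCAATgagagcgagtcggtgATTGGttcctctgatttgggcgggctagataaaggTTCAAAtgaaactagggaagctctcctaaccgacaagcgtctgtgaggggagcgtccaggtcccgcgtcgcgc
Cdk1: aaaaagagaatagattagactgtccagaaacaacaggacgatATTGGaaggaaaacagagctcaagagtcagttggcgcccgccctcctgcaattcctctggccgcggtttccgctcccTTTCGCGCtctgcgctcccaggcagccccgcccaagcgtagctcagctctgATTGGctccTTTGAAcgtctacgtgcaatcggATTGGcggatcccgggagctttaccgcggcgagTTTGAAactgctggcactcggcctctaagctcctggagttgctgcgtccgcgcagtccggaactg
Ube2c: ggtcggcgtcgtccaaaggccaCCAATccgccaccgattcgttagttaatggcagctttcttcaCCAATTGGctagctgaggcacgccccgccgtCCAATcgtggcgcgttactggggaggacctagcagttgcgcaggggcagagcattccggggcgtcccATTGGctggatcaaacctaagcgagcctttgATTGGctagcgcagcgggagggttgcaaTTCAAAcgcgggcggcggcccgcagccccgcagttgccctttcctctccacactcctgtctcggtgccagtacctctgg
Mcm5: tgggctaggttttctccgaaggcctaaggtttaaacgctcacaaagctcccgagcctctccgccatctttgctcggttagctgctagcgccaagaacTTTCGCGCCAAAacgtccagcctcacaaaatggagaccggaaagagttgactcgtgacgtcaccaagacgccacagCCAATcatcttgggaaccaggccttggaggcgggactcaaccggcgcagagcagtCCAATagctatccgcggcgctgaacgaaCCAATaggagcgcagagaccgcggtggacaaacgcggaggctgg
Top2a and Cdk1 each held 2 CHR matches and Ube2c held 1, whereas Mcm5 held none and 2 overlapping E2F matches. Cdk1 held 1 E2F match too, and Mcm5 held 3 CCAAT matches, as did Cdk1. Of the 47 genes listed for mitotic control and for the kinetochore and spindle, 39 had a window, and 74.4% of these held a CHR, against 20.2% of all 27025 genes with a window. CCAAT was found in 79.5% of them, against 41.1% of all genes. Of 30 replication genes, 26 had a window and 38.5% of these held an E2F site, against 2.12% of all genes. CCAAT was found in 65.4% of these 26, so it was not particular to the mitotic lists. A match describes these letters in this window and does not show binding. Birc5, a rule gene, held none of the 3 motifs in its window.

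The label was checked against marker genes before any comparison. On day 5, 95.3% and 93.4% of members held at least 1 UMI of the microglial genes P2ry12, Tmem119, Sall1, Siglech or Gpr34. In comparison cells it was 83.5% and 88.9%. On day 14 it was 70.0% and 72.7% in members and 76.2% and 53.2% in comparison cells. Deeper cells detect more genes, and members were deeper. At 3 or more UMIs, day 5 members had 70.1% and 75.7%, and comparison cells 58.6% and 70.8%. On day 14 it was 20% and 54.5% in members and 45.4% and 22.6% in comparison cells. As a part of all UMIs, these genes summed to less in members than in comparison cells of each library. The macrophage genes Ms4a7, Mrc1, F13a1, Ccr2 and Pf4 were found in 80.0% and 81.8% of members on day 14 and in 64.5% and 57.9% on day 5. C1qa was found in every member. It was also found in 37.2% of T cells (3 or more T cell UMIs, under 10 C1q UMIs), at a median depth of 2259 UMIs against 5704 in members, so a single C1q UMI does not mark a phagocyte.

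The label did not hold for a large part of the day 14 members. On day 14, 11 of 21 members (52.4%) held 3 or more UMIs of dendritic cell genes (Flt3, Zbtb46, Xcr1, Clec9a, Cd209a) or of natural killer (NK) cell genes (Ncr1, Klrb1c, Klre1, Gzma), against 31 of 259 (12%) on day 5. Among comparison cells this applied to 62 of 729 (8.50%) on day 14 and to 212 of 2780 (7.63%) on day 5. Of the 11, 7 held 10 or more UMIs of Xcr1, Clec9a and Naaa, which mark the cross-presenting dendritic cells, and 4 held 3 or more NK UMIs. All 8 day 14 members with under 50 C1q UMIs were of this kind. On day 5, 5 members held 10 or more UMIs of Ngp, Camp, Ltf and Mmp8, granule genes of immature neutrophils, together with 144 to 340 C1q UMIs and 13146 to 22817 UMIs in all. No doublet caller was run here, and whether such barcodes hold a single cell cannot be told from these counts. Results are therefore given with and without "other-lineage cells", which held 3 or more UMIs of NK, dendritic, neutrophil (Retnlg, Csf3r, Cxcr2) or plasmacytoid (Ccr9, Cox6a2, Klk1, Ly6d) genes, or of the granule genes. Leaving them out kept 222 members, 10 from day 14 and 212 from day 5.

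**Figure D1:**
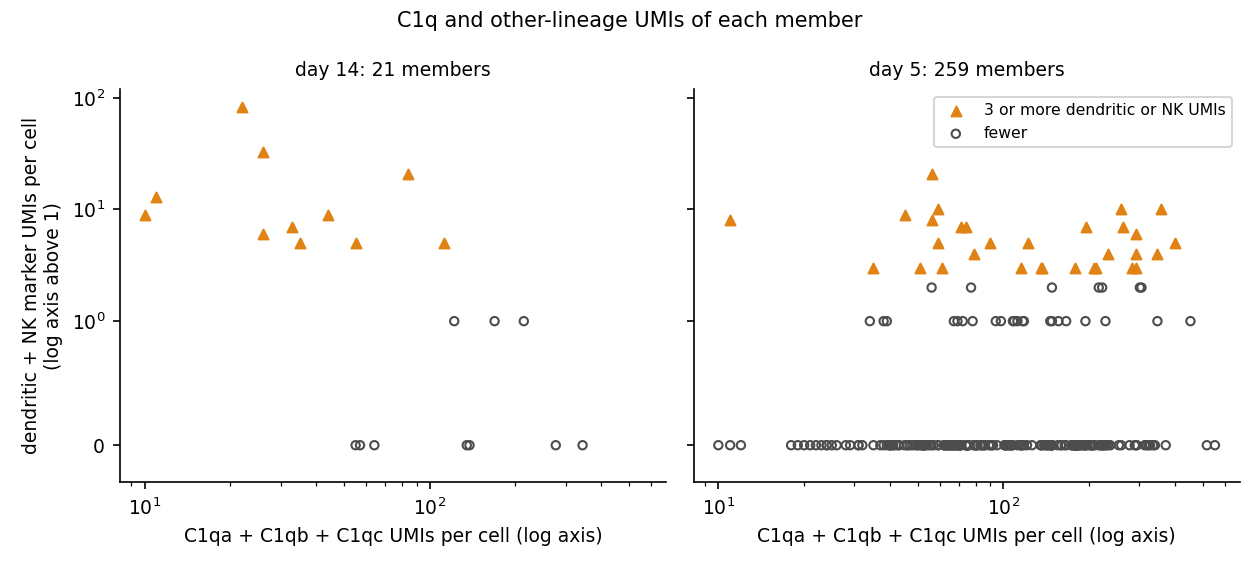
C1q UMIs (x axis, log) against the sum of dendritic and NK marker UMIs (y axis, log above 1) in each of 21 day 14 members (left) and 259 day 5 members (right). Triangles mark the 11 day 14 and 31 day 5 members with 3 or more UMIs of either kind, and on day 14 all 8 members under 50 C1q UMIs are triangles.

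The 5 division genes chose the members, so their values are a description. Birc5, which encodes the survivin subunit of the chromosomal passenger complex, was found in 83.9% of members, Ube2c in 66.8%, Cdk1 in 62.9%, Top2a in 38.9% and Mki67 in 28.2%. Birc5 stood at 377 and 373 CPM (UMIs scaled to a common library size) in members of day 14 and at 394 and 339 CPM in those of day 5. Top2a stood at 259 and 169 CPM on day 14 and at 110.0 and 118 CPM on day 5. All 5 were at 0 in the comparison cells by the rule. The median member held 5 division UMIs, with a range of 3 to 45.

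Many members lay at the threshold. In all, 90 held exactly 3 division UMIs, at a median depth of 4928.5 UMIs, and 47 held 10 or more, at a median of 12133. Just outside, 10 and 6 cells of the day 14 libraries and 72 and 83 of the day 5 libraries held 2. Members were deeper than comparison cells in 4 of 4 libraries, which the rule favours. Their median depths were 4958 and 9249 UMIs on day 14 and 5453 and 5554 on day 5, against 3683 and 5181 on day 14 and 3605 and 2882 on day 5 in comparison cells. Their summed C1q level was 12236 and 11050 CPM of all UMIs on day 14 and 18341 and 20581 on day 5, against 17890 and 14226 on day 14 and 18103 and 21593 on day 5 in comparison cells.

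Members made up a smaller share of C1q-high cells on day 14 than on day 5. The shares were 2.40% (10 of 417, 95% exact binomial interval 1.16 to 4.37%) and 2.56% (11 of 429, 1.29 to 4.54%) on day 14. On day 5 they were 7.35% (107 of 1456, 6.06 to 8.81%) and 6.97% (152 of 2182, 5.93 to 8.12%). The means were 2.48% ± 0.117 on day 14 and 7.16% ± 0.271 on day 5 (SD, n = 2 libraries each), a difference of -4.68 points. Both day 14 libraries lay below both day 5 libraries, with intervals that did not overlap, but the exact permutation test over 2 against 2 libraries gave p = 0.33 (two-sided), the smallest it allows.

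The difference had the same direction when depth was set equal and when cells with markers of other lineages were left out. When cells of 3000 or more UMIs were thinned to 3000, the share was 1.48% ± 0.392 on day 14, from only 3 of 250 and 6 of 342 cells. On day 5 it was 4.15% ± 0.12, from 36 of 851 and 46 of 1133 cells. The same cells gave 3.01% and 8.97% before thinning. After thinning, the intervals of single libraries overlapped between the days. Without other-lineage cells the shares were 1.72% and 1.08% on day 14 and 7.26% and 6.34% on day 5. Of all passing cells, members were 0.432% ± 0.0629 on day 14 and 4.34% ± 0.0989 on day 5, while C1q-high cells as a whole were 17.4% ± 1.71 and 60.7% ± 3.68. A share reflects both the numerator and which cells the gate admitted, and these cannot be told apart.

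The T cell shares were in another order, with day 14 replicate 2 the highest and day 5 replicate 2 the lowest. The share of T cells with 3 or more division UMIs was 3.06% (23 of 751) and 7.11% (30 of 422) on day 14, against 3.85% (2 of 52) and 1.72% (1 of 58) on day 5. T cells were few on day 5, with intervals of 0.469 to 13.2% and 0.0436 to 9.24%. The day difference of the C1q-high share minus that of the T cell share was -6.98 points (exact permutation p = 0.33 over libraries, the smallest possible).

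**Figure D2:**
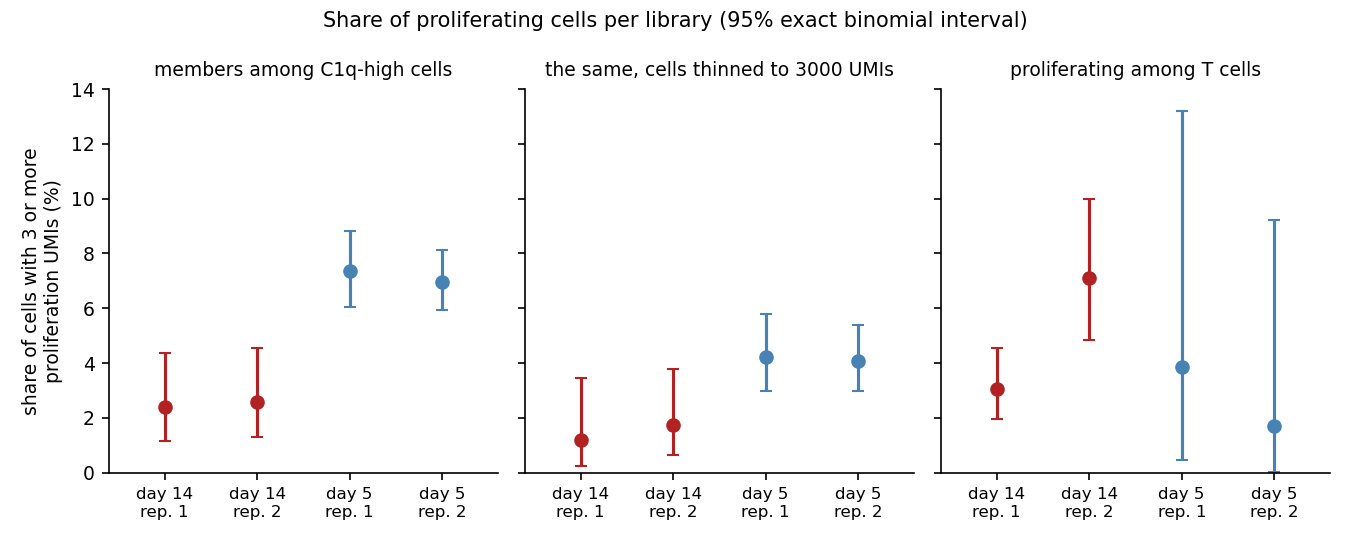
Share of cells with 3 or more division UMIs in each library, for C1q-high cells as counted (left), for C1q-high cells thinned to 3000 UMIs (middle) and for T cells (right); points are libraries, bars are 95% exact binomial intervals and cover counting error only. Both day 14 libraries lie below both day 5 libraries among C1q-high cells, and the T cell intervals of day 5 are wide.

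Day 5 members were mostly of microglial kind by their marker balance. More microglial than macrophage UMIs were found in 70.1% and 69.7% of day 5 members, against 57.4% and 67.9% of comparison cells. On day 14 the values were 30.0% and 45.5% in members and 56.0% and 26.1% in comparison cells, so the sets were ordered differently in the 2 day 14 libraries. Over the 4 libraries the mean difference was 1.98 points (3 of 4 libraries higher in members, exact sign-flip permutation p = 0.875, where 0.13 is the smallest possible). Against comparison cells matched on total UMIs it was 12.5 points, higher in 4 of 4 libraries (exact p = 0.13). Members were found among both kinds of cell. They were 1.29% and 4.10% of microglial-balance C1q-high cells on day 14 and 8.59% and 7.16% on day 5, and 4.14% and 2.18% of macrophage-balance ones on day 14 and 5.92% and 6.72% on day 5. The difference between these shares averaged 0.54 points (exact sign-flip permutation p = 0.75).

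Most members held more mitotic than replication transcripts. Summed over the 47 genes of mitotic control, kinetochore and spindle, the median member held 11 UMIs and the highest 123. Over 30 replication genes the median was 4 and the highest 70. The mitotic sum covers more genes, so equal counts are no neutral balance between the 2 kinds. None of these genes was used by the rule, although 4 of its 5 genes act in G2 or mitosis. Mitotic UMIs outnumbered replication UMIs in 212 of 280 members, and the opposite held in 59. By library this was 8 of 10 and 7 of 11 members on day 14 and 79 of 107 and 118 of 152 on day 5. Both kinds reached 3 UMIs in 188 members, mitotic genes alone in 73 and replication genes alone in 15. Comparison cells had a median of 1 UMI of either kind, yet 604 of 3509 reached 3 replication UMIs without 3 mitotic ones and 272 reached both.

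**Figure D3:**
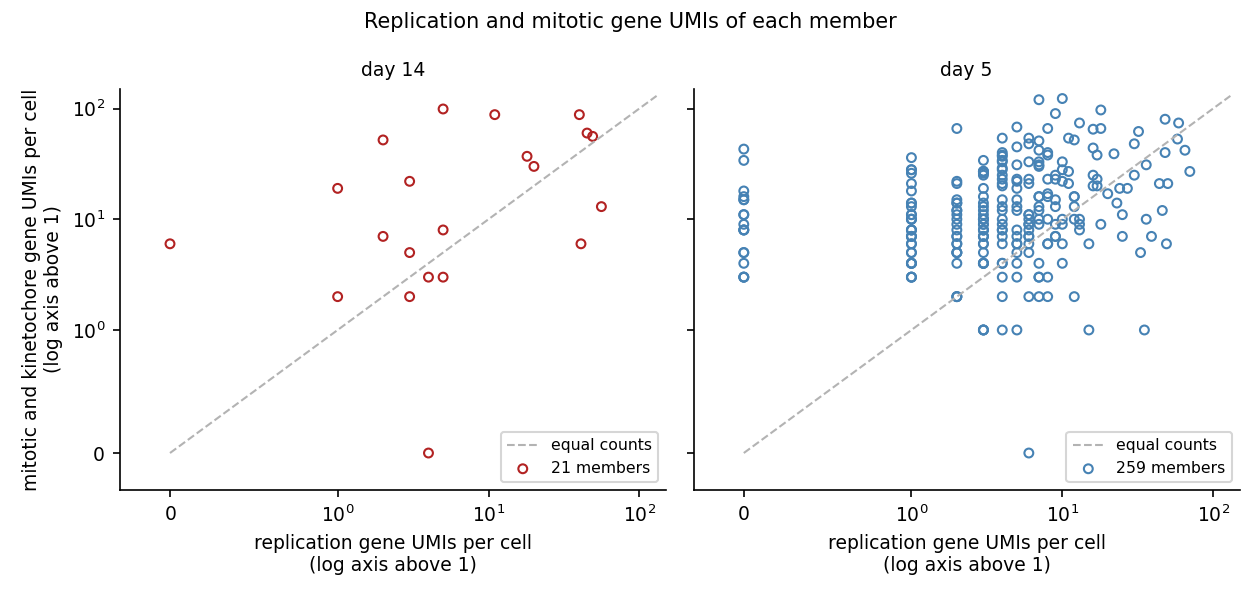
UMIs of 30 replication genes (x axis, log above 1) against UMIs of the 47 mitotic control, kinetochore and spindle genes (y axis, log above 1) in each of 21 day 14 members (left) and 259 day 5 members (right), with the line of equal counts dashed. Most points lie above the line, 212 of 280 over both days.

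UMIs were then summed per library and set, and members were compared with comparison cells of the same library by edgeR's quasi-likelihood test, with Benjamini-Hochberg adjustment over 8765 genes. The test called 505 genes (5.76%), 316 higher (3.61%) and 189 lower (2.16%), at an adjusted p under 0.05, with a median log2 fold change of -0.06 over all genes. Fold changes are members over comparison cells. The rule's own genes were kept out of these counts. Genes that share the cell cycle with the rule had to follow the choice of members, so their values describe the members and support nothing beyond it.

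Among mitotic genes, 20 of 20 for mitotic control and 27 of 27 for the kinetochore and spindle were above the threshold, with median log2 fold changes of 4.54 and 4.21. Cdc20, the activator of the anaphase-promoting complex, had 82.5 and 142 CPM in members on day 14 and 113 and 104 CPM on day 5, against 2.18 and 1.58 CPM on day 14 and 3.40 and 2.87 CPM on day 5 in comparison cells. Every library of members lay far above every library of comparison cells. Among the genes with at least 50 CPM in either set, Cenpf, a kinetochore protein, stood highest at 5.77 ± 0.31 (SE), followed by Pimreg at 5.74 ± 0.41 and Nusap1, a spindle protein, at 5.69 ± 0.29. Ccnb1, the cyclin partner of Cdk1, stood at 4.95 ± 0.31.

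Replication genes were higher by less. Of 30, 22 passed, all upward, with a median of 1.6. Rrm2, the S phase subunit of ribonucleotide reductase, had 247 and 142 CPM in members on day 14 and 143 and 94.6 CPM on day 5, against 3.64 and 1.58 CPM on day 14 and 7.01 and 12 CPM on day 5 in comparison cells. Mcm5, whose promoter is printed above, had 35.3 and 79.9 CPM in members on day 14 and 49.2 and 46.8 CPM on day 5, against 7.28 and 12.1 CPM on day 14 and 14.0 and 15 CPM on day 5 in comparison cells. Pcna, the sliding clamp of DNA polymerase, changed by 1.06 ± 0.19, and comparison cells held 67.0 to 90.8 CPM of it. Of 25 chromatin genes tested, 21 passed with a median of 2.02. They included Stmn1, a microtubule regulator, at 3.65 ± 0.25 and Hmgb2, a chromatin protein, at 2.77 ± 0.21.

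Regulators of the cycle were mixed. Of 25 tested, 7 passed upward and none downward, with a median of 0.53. Foxm1, which drives mitotic genes, had 23.6 and 26.6 CPM in members on day 14 and 13 and 8.14 CPM on day 5, against 1.46 and 0.526 CPM on day 14 and 0.850 and 0.16 CPM on day 5 in comparison cells. Cdkn2c, an inhibitor of CDK4 and CDK6, was also higher, at 82.5 and 115 CPM on day 14 and 92.6 and 85.5 CPM on day 5 in members, against 15.3 and 10.5 CPM on day 14 and 15.1 and 13.1 CPM on day 5 in comparison cells. The others that passed were Mybl2, Ccne2, E2f8, Ccne1 and Cdkn2d, from 3.72 to 0.75. Ccnd1, the D-type cyclin, did not pass (0.13 ± 0.20), nor did Cdkn1a, the p21 inhibitor (-0.55 ± 0.24, adjusted p = 0.249).

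Outside the 5 cell cycle lists, several of the genes with the largest increase also act in division. Pclaf, a PCNA-binding factor, stood at 4.84 ± 0.30. Lockd, a noncoding RNA next to Cdkn1b, stood at 4.18 ± 0.32, and Knstrn, a spindle protein, at 4.09 ± 0.29. Tacc3, Asf1b, Tubb4b and Kpna2 followed at 3.43, 3.28, 2.40 and 2.17, and Rangap1, Cmc2, Ccdc34, Nucks1, Gmnn, Pmf1 and Rnf26 at 1.93 to 1.66. Biosynthetic lists did not move beyond the threshold over the 4 libraries. Of 15 tested genes for nucleotide and ribosome production, none passed, although 15 of 15 lay above 0 (median 0.32), and of 16 respiratory chain genes none passed (median 0.10).

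**Figure D4:**
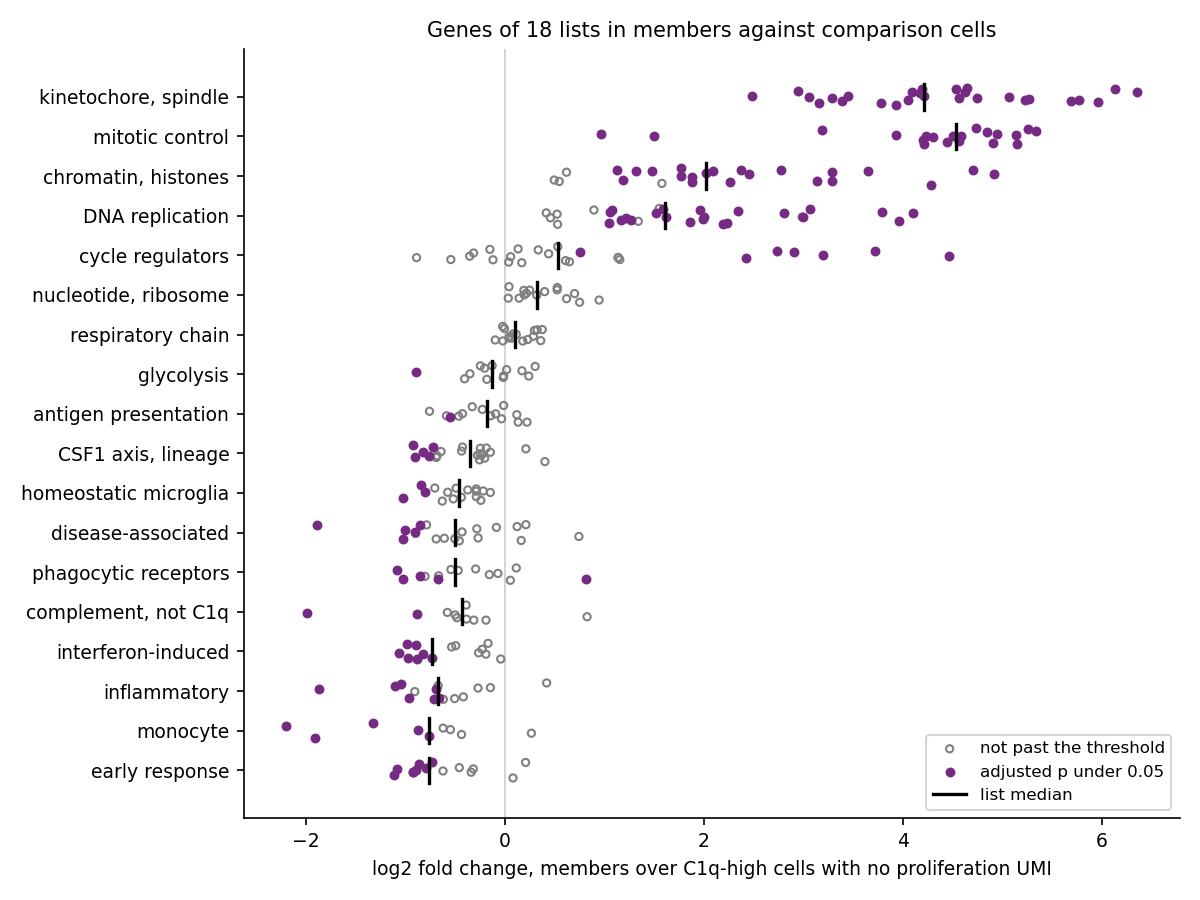
Log2 fold change of members over comparison cells (x axis) for each tested gene of 18 lists (rows); filled points had an adjusted p under 0.05 by edgeR and bars mark list medians. The cell cycle lists at the top lie to the right, down to a median of 0.53 for cycle regulators, and the lists from the CSF1 axis to the early response genes have medians below 0.

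Early response genes were lower in members. These encode transcription factors and phosphatases that cells switch on within minutes of a stimulus, tissue dissociation included. Of 14 tested, 8 passed downward and none upward, with a median of -0.77 against -0.06 over all genes. Jund, a subunit of the AP-1 factor, had 283 and 364 CPM in members on day 14 and 448 and 544 CPM on day 5, against 959.8 and 720.2 CPM on day 14 and 882 and 1044 CPM on day 5 in comparison cells. No library of members overlapped any of comparison cells, and the log2 fold change was -1.12 ± 0.19 (edgeR adjusted p = 0.000265). Dusp1, a phosphatase of MAP kinases, stood at -0.93 ± 0.18 (adjusted p = 0.00122) and Fos, an AP-1 subunit, at -0.74 ± 0.18 (adjusted p = 0.00952). Without other-lineage cells, 11 of 13 passed downward (background 3.53% lower) and Jund stood at -1.61. With comparison cells matched on depth, 7 of 14 passed.

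Inflammatory cytokines and chemokines were also lower, 7 of 15 downward and none upward, with a median of -0.67. Ccl7, a monocyte attractant, had 0 and 88.8 CPM in members on day 14 and 2.89 and 51.9 CPM on day 5, against 113 and 303 CPM on day 14 and 56.5 and 116 CPM on day 5 in comparison cells (log2 fold change -1.87 ± 0.31, edgeR adjusted p = 0.000173). The level was lower in members of every library. Il1a and Il1b, the interleukin 1 cytokines, stood at -1.10 ± 0.27 and -1.04 ± 0.26. Ccl12, Cd14, Ccl4 and Ccl3 passed as well, but these 4 did not pass without other-lineage cells (Ccl12 -0.73, adjusted p = 0.0649). Tnf did not pass (0.42 ± 0.27). It had 0 and 8.88 CPM in members on day 14 and 110.0 and 127 CPM on day 5, against 83 and 33.1 CPM on day 14 and 52.9 and 90.9 CPM on day 5 in comparison cells, so members lay lower on day 14 and higher on day 5.

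Of 15 interferon-induced genes, 7 passed downward and none upward (median -0.73). Ifitm3, a membrane protein that blocks viral entry, had 683 and 1501 CPM in members on day 14 and 773 and 779 CPM on day 5, against 2756 and 3888 CPM on day 14 and 1210.2 and 1037 CPM on day 5 in comparison cells (-1.07 ± 0.21, edgeR adjusted p = 0.00152). The gap was wider on day 14, and the difference of the day effects had an adjusted p of 0.00148 in the edgeR interaction test. That test kept other-lineage cells, and 11 of 21 day 14 members carried dendritic or NK markers. Irf7, the factor that amplifies type I interferon, stood at -0.82 ± 0.20 and passed without other-lineage cells too (-0.97). With the microglial balance required in both sets, 1 of 15 passed downward (background 4.14% lower) and 1 upward (4.6% higher).

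Part of the monocyte genes were lower as well. Of 9 monocyte genes tested, 5 passed downward (median -0.77). Chil3, a chitinase-like protein of monocytes, had 0 and 8.88 CPM in members on day 14 and 318 and 94.6 CPM on day 5, against 129.6 and 145 CPM on day 14 and 455 and 261 CPM on day 5 in comparison cells (-1.33 ± 0.30, edgeR adjusted p = 0.00526). Ms4a4c stood at -1.91 ± 0.36. Ly6c2 had the largest change (-2.20 ± 0.49), but it was higher in members of day 5 replicate 2, at 78.4 CPM against 63.5 CPM. Lyz2, lysozyme, was lower in 4 of 4 libraries (-1.57 ± 0.25), as were Arg1, F10 and Clec4d (-1.93 to -1.64). Ms4a7, found on macrophages other than microglia, was the only one of 10 border macrophage genes to pass (-1.20 ± 0.23).

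Of 19 disease-associated genes, which activated phagocytes induce near damaged tissue, 5 passed downward and none upward (median -0.51). In the day 5 libraries alone, which held 259 of the 280 members, 5 passed upward and 5 downward (background 7.91% higher and 5.76% lower), with Ch25h, Lpl and Cst7 among those upward. Gpnmb, a lysosomal glycoprotein, had 47.1 and 79.9 CPM in members on day 14 and 163 and 141 CPM on day 5, against 497 and 1314 CPM on day 14 and 393 and 259 CPM on day 5 in comparison cells (-1.89 ± 0.32, edgeR adjusted p = 0.000241). Members and comparison cells did not overlap over the 4 libraries. Axl, a receptor for dying cells, stood at -1.03 ± 0.23 and Lgals3, galectin-3, at -1.0 ± 0.25. Spp1, osteopontin, did not pass (-0.79 ± 0.44) and moved in opposite directions by day. It had 1108 and 3543 CPM in members on day 14 and 7379.9 and 5215 CPM on day 5, against 7652 and 19295 CPM on day 14 and 3850.2 and 2814 CPM on day 5 in comparison cells. The difference of its day effects had an edgeR adjusted p of 4.33e-18. It was fitted over all members only, and 11 of 21 day 14 members carried dendritic or NK markers. The part of those cells in it was not tested.

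Of 16 homeostatic microglia genes, 3 passed downward (median -0.47, and 16 of 16 below 0). P2ry12, the ADP receptor of resting microglia, had 106 and 97.7 CPM in members on day 14 and 311 and 419 CPM on day 5, against 301 and 100.4 CPM on day 14 and 539 and 805 CPM on day 5 in comparison cells (-0.85 ± 0.22, edgeR adjusted p = 0.0159). Tmem119 stood at -0.80 ± 0.21 and Slc2a5, a fructose transporter, at -1.03 ± 0.26. Against depth-matched comparison cells none did (background 1.6% lower), and P2ry12 and Tmem119 did not pass without other-lineage cells (adjusted p = 0.281 and 0.206).

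Of 20 genes of the CSF1 axis and of lineage control, 5 passed downward and none upward (median -0.35). Csf1r, the CSF1 receptor, had 424 and 444 CPM in members on day 14 and 968 and 1269 CPM on day 5, against 1068 and 745 CPM on day 14 and 1363 and 1795 CPM on day 5 in comparison cells (-0.73 ± 0.18, edgeR adjusted p = 0.0149). Members were lower in each library. Cebpb, Cebpa and Tgfbr1 stood between -0.92 and -0.82. Without other-lineage cells, Tgfbr1, a TGF-beta receptor, passed (-0.86, adjusted p = 0.00756), Cebpb and Cebpa did not, and Csf1r stood at -0.40 (adjusted p = 0.42). Spi1, the PU.1 factor, did not pass (-0.28 ± 0.19).

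Phagocytic receptors gave 4 genes lower and 1 higher of 14. Mertk, which binds dying cells, had 11.8 and 26.6 CPM in members on day 14 and 18.8 and 42.7 CPM on day 5, against 68.5 and 65.2 CPM on day 14 and 54.6 and 67.6 CPM on day 5 in comparison cells (-1.08 ± 0.25, edgeR adjusted p = 0.00757). Cd5l, a secreted scavenger protein of macrophages, was the exception (0.81 ± 0.23, adjusted p = 0.0366). It had 0 and 8.88 CPM in members on day 14 and 201 and 168 CPM on day 5, against 15.3 and 27.3 CPM on day 14 and 117 and 74.5 CPM on day 5 in comparison cells, so it was higher in members on day 5 and not on day 14. In the day 5 libraries alone it stood at 0.98, and 36.1% of all members held a Cd5l UMI, against 13.9% of comparison cells and 0.5% of T cells. Median depths were 5704, 3420 and 2259 UMIs in these 3 sets, and deeper cells detect more genes, so these shares are not at equal depth. Of the 280 members, 259 were of day 5. DESeq2 did not call Cd5l (adjusted p = 0.943).

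Complement genes other than C1q gave 2 of 10 lower, Cfb and C3ar1, at -1.99 ± 0.41 and -0.88 ± 0.24. Of 13 glycolysis genes, Hk2, hexokinase 2, was lower (-0.89 ± 0.21) and the rest did not pass. Of 14 antigen presentation genes, H2-D1, an MHC class I chain, passed at -0.56 ± 0.16. MHC class II values differed with the cells counted. Cd74, the invariant chain, stood at -0.14 ± 0.15 over all members, at -0.45 in the day 5 libraries alone and at -2.47 without other-lineage cells (edgeR adjusted p = 5.05e-23). Other-lineage cells were chosen partly by dendritic cell genes, and leaving them out took 20.7% of members and 12.3% of comparison cells. The last value is tied to that choice and is no independent test.

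Of 10 dendritic cell genes, 2 passed upward and 1 downward, and of 8 NK cell genes none passed. Xcr1, a chemokine receptor of dendritic cells, had 200.3 and 107 CPM in members on day 14 and 4.34 and 8.14 CPM on day 5, against 17.5 and 16.8 CPM on day 14 and 7.86 and 3.67 CPM on day 5 in comparison cells (1.86 ± 0.46). Naaa stood at 1.12 ± 0.26, and Ccr7, a migration receptor of mature dendritic cells, was lower at -1.40 ± 0.33. Of 10 neutrophil genes, Camp, Ngp and Ltf passed upward at 1.87, 1.82 and 1.76. Camp had 0 and 0 CPM in members on day 14 and 375 and 389 CPM on day 5, against 0.728 and 0 CPM on day 14 and 41.2 and 237 CPM on day 5 in comparison cells. The granule UMIs of members lay mostly in 5 day 5 cells. These held 605 and 40 in replicate 1 and 68, 159 and 572 in replicate 2, while every other member held 5 or fewer. Leaving out other-lineage cells removes cells by Camp, Ngp, Ltf and Xcr1 themselves, so it is no test of where these transcripts came from.

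**Figure D5:**
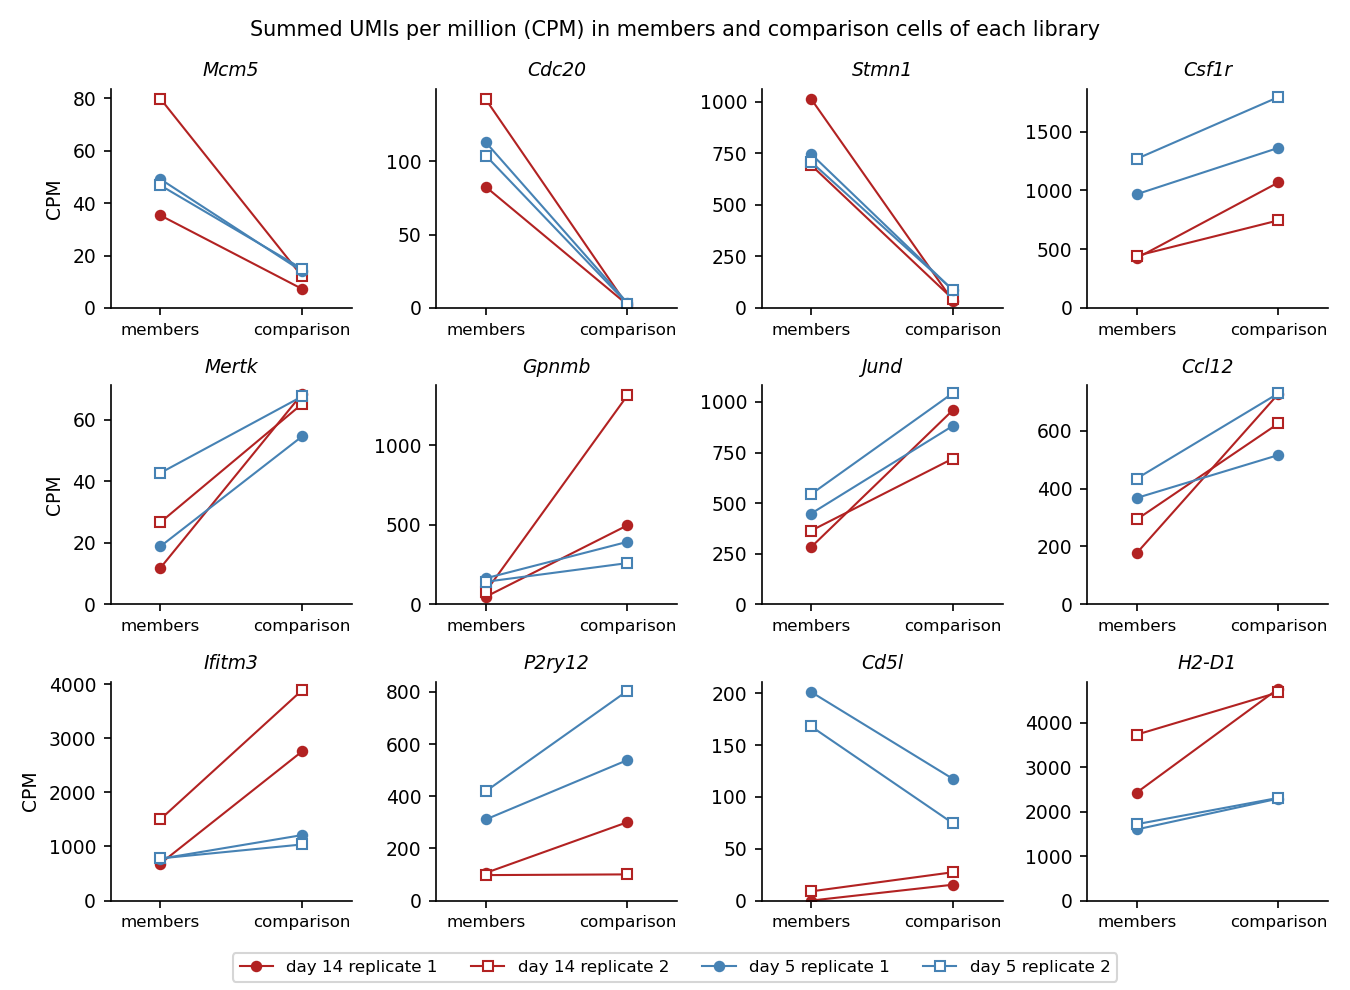
CPM (y axis, linear from 0) of 12 genes in members (left of each panel) and comparison cells (right), with a line for each of the 4 libraries. Mcm5, Cdc20 and Stmn1 run downward from members to comparison cells in all 4 libraries, Cd5l does so in the 2 day 5 libraries, and the others run upward in all 4.

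Members of day 14 were then compared with members of day 5, as sums of 10 and 11 cells against 107 and 152 cells. edgeR's quasi-likelihood test called 151 of 4823 genes higher on day 14 (3.13%) and 86 lower (1.78%). Without other-lineage cells the sums held 6 and 4 cells on day 14, and 22 of 3550 genes were higher (0.62%) and 11 lower (0.31%). Of the 237 genes called at first, 168 were tested there and 24 were called. CPM values below are scaled within the day comparison.

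Over all members, 3 of 3 tested NK genes and 3 of 7 dendritic genes were higher on day 14 and 5 of 8 neutrophil genes lower. Other-lineage cells were defined by genes of these lists, so leaving them out takes these genes away by construction and is no test of them. The NK granzyme gene Gzma had 452 and 753 CPM in members on day 14, against 28.4 and 0 CPM on day 5. The chemokine gene Xcl1 had 117 and 516 CPM on day 14, against 1.5 and 6.40 CPM on day 5, and the NK receptor gene Klra7 had 29.1 and 217 CPM on day 14, against none on day 5. The UMIs of Ncr1, Klrb1c, Klre1 and Gzma in day 14 members lay in few cells. In replicate 1, 33 of 35 were in 1 cell, and in replicate 2 the 109 were in 3 cells (83, 21 and 5). These NK values are therefore no level of day 14 members in general. Ngp was at 0 in both day 14 libraries, against 482 and 378 CPM on day 5, and Camp, Ltf and Wfdc21 were also at 0 on day 14. The granule UMIs of day 5 lay mostly in 5 of 259 members, and day 14 had only 21 members. S100a9 had 29.1 and 92.8 CPM on day 14, against 1254 and 719 CPM on day 5. Among homeostatic microglia genes, 7 of 16 were lower on day 14 over all members and 0 of 15 without other-lineage cells. Tmem119 stood at -1.84 ± 0.29 over all members and at -0.59 (adjusted p = 0.67) without those cells. Of the division lists, chromatin genes gave 5 of 20 higher on day 14, replication genes 1 of 20, kinetochore and spindle genes 1 of 22 and mitotic control genes 0 of 17, and none was called without those cells.

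Some MHC class I and interferon-induced genes were higher on day 14. Over all members, 6 of 12 antigen presentation genes and 8 of 15 interferon-induced genes were higher. Without other-lineage cells 3 of 11 antigen presentation genes were higher and 4 lower, and 3 of 13 interferon-induced genes were higher, namely Irf7, Ifi27l2a and Ly6e. H2-K1, an MHC class I heavy chain, had 1617 and 2238 CPM on day 14, against 616 and 672 CPM on day 5, a log2 fold change of 1.59 ± 0.18 (edgeR adjusted p = 0.000188), and stood at 2.03 without other-lineage cells. B2m, the class I light chain, stood at 0.84 ± 0.13 and at 1.59 without those cells. Irf7 had 408 and 577 CPM on day 14, against 76.3 and 109 CPM on day 5 (2.41 ± 0.27), and 2.74 without those cells. Ly6e and Ifi27l2a behaved likewise. Cst7, a cysteine protease inhibitor, was also higher over all members, with 976 and 784 CPM on day 14, against 265 and 309 CPM on day 5 (1.6 ± 0.20). Its value without other-lineage cells is not reported here, and the part of those cells in its rise was not tested.

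Comparison cells showed these day differences too. There the test called 358 of 9889 genes higher on day 14 (3.62%) and 82 lower (0.829%). H2-K1 stood at 1.22, B2m at 1.12, Irf7 at 2.61 and Cst7 at 2.07. The difference between the day effects of members and comparison cells did not pass for these 4 (edgeR interaction, adjusted p = 0.835, 0.303, 0.535 and 0.151). The interaction called 226 of 8765 genes in all (2.58%), 45 above and 181 below 0, with a median of -0.25 over all genes. Among them was Ifi27l2a, whose day effect was smaller in members (-0.91, adjusted p = 0.00804). The interaction was fitted only with other-lineage cells kept. The sign of MHC class II genes differed with the cells counted. Cd74 had 15208 and 13179 CPM on day 14, against 10969 and 9843 CPM on day 5 (0.45 ± 0.11, adjusted p = 0.0436), and stood at -4.24 without other-lineage cells (adjusted p = 0.000156). Leaving out these cells, chosen partly by dendritic cell genes, took 52.4% of day 14 members and 18.1% of day 5 members. Class II values without them are therefore no independent test.

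Cd5l fell to 0 and 10.3 CPM in members on day 14, against 208 and 176 CPM on day 5 (-4.92 ± 0.69, edgeR adjusted p = 0.00104). Without other-lineage cells the value was -3.71, with an adjusted p of 0.119, and in comparison cells it was -2.12 (adjusted p = 0.00515). Tnf had 0 and 10.3 CPM on day 14, against 114 and 133 CPM on day 5 (-4.30 ± 0.77), and Fn1, fibronectin, had 14.6 and 30.9 CPM, against 178 and 188 CPM (-2.91 ± 0.47), while neither passed without other-lineage cells. Mrps17 stood at -2.84 ± 0.68. Of the 151 genes higher on day 14, 20 bore names of pseudogenes or predicted genes, and 45 of 358 did in comparison cells. Without other-lineage cells it was 10 of the 22 higher genes. Of the lower genes, 0 of 86 bore such names in members and 1 of 82 in comparison cells, so these names ran in 1 direction. Rpl9-ps6, for example, had 539 and 536 CPM on day 14, against 19.4 and 8.53 CPM on day 5. In comparison cells Rpl9-ps6 had 535 and 393 CPM on day 14, against 13.9 and 11.2 CPM on day 5. Rpl9-ps6 is a near-identical copy of a ribosomal protein gene with which it can share reads, so such values are uncertain. Why these names ran in 1 direction was not tested. Each library belongs to a single day, so a technical difference between the days cannot be told apart from the day itself. This limit applies to every day difference given here.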

How the data were processed

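The values are raw gene counts (UMIs) per cell barcode as deposited; the tools listed by the submitters' processing notes are Cell Ranger (3.0.1) and Seurat (2.3.4), and the build is GRCm38 (mm10), with no role given for either tool. Members and gene lists were chosen with earlier results of these data known. Genes were named by a rule: at least 50 CPM in either set, an adjusted p under 0.05 and the same direction in every library, the 15 largest each way (10 for the days), and 15 more outside the cell cycle lists. Some genes that this rule or the lists include are not reported here.

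UMIs were summed per library and set and tested with edgeR 4.0.16 (R 4.3.3), with library as a block for members against comparison cells, TMM scaling, a filter on low counts and Benjamini-Hochberg adjustment. The day tests compared 2 libraries with 2. On simulated counts, 53% of 2-fold and 89% of 4-fold changes were recovered for members against comparison cells (8765 genes), 23% and 57% for the days within members (4823 genes), and 7% and 31% for the interaction (8765 genes), which therefore misses most true differences. The simulation gave every gene of a fit the same spread and every library the same starting profile, without mixed cells. Recovery in the real counts may therefore differ. Single values used exact permutation. Binomial intervals (exact Clopper-Pearson) cover counting error only, and depth was 9288054 to 13610119 UMIs per library. DESeq2 1.42.0, RLE scaling, no filter, left-out replicates, no library block, replicate blocks, depth matching, thinning, other UMI limits and lineage subsets were tried as alternatives. The subsets without other-lineage cells and a crossed block were added after seeing the data. Also unplanned were the fits of single days, of the macrophage balance, and of depth matching within the microglial balance. For the days, so were the limit of 30 C1q UMIs, leaving out cells with NK, neutrophil or plasmacytoid genes, and all alternatives in comparison cells. No doublets were removed here.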

Additional observations from a re-analysis of the deposited data

Results flagged for a closer look

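For 17 named genes the day effect (day 14 over day 5) differed between members and comparison cells by edgeR's interaction test, with an adjusted p under 0.05. The values below are the day effect in members minus that in comparison cells, on the log2 scale, where the median of all genes was -0.25. Division genes stood above 0, with Pclaf at 2.75, Hist1h2ap at 2.27 and Gmnn at 1.76. Genes of NK cells and Car2 did too, with Gzma at 5.73, Xcl1 at 2.85, Klra7 at 8.39 and Car2 at 4.42. Phagocyte and monocyte genes stood below 0, with Arg1 at -9.90, Chil3 at -3.83, Ms4a4c at -3.18, Gpnmb at -2.79 and Lyz2 at -1.84. Below 0 were also Tnf at -4.12, Fn1 at -3.79, S100a9 at -3.53, Mrps17 at -3.01 and S100a8 at -2.23. Klra7 was at 0 in both day 5 libraries of members and Arg1 in both day 14 libraries, so these sizes depend on the prior count and are no bound. Of the 21 day 14 members, 11 carried NK or dendritic markers, and the part of these cells in the interaction was not tested.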

How the results depend on the processing

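For members against comparison cells, 316 genes were higher in the fit reported, against 207 with depth-matched comparison cells, 174 thinned to 3000 UMIs, 127 with the macrophage balance, 765 in day 5 libraries alone and 150 in day 14 libraries alone. The 189 lower genes became 88 with DESeq2, 318 with no filter, 33 with no library block, 92 depth-matched, 316 with 30 or more C1q UMIs, 60 with the macrophage balance and 557 on day 5 alone. Leaving out 1 library gave 192 (without day 5 replicate 2) to 351 higher and 75 (without day 5 replicate 2) to 197 lower. The split of calls was 62.6% higher, against 75.3% with DESeq2 and 86.7% with no library block. Within members by day, 151 higher became 95 with DESeq2, 44 with the microglial balance, 46 with 30 or more C1q UMIs and 22 without other-lineage cells, and 72 (without day 5 replicate 1) to 206 with 1 library left out. The 86 lower became 40, 22, 14 and 11 in the same settings, 262 with no filter, and 54 (without day 5 replicate 2) to 172 with 1 library left out. With a replicate block for the days, 170 genes were higher and 94 lower in members and 300 and 59 in comparison cells. Same-numbered libraries correlated at 0.0212 in members and -0.199 in comparison cells, and a crossed replicate block there gave 817 and 507; without other-lineage cells 50 were lower. The difference in microglial balance was -3.82 without day 14 replicate 2, -1.60 without day 5 replicate 1 and up to 11.3 without day 14 replicate 1. Of the named genes, Ccr7 reversed, to 0.61 with the macrophage balance. Others kept their direction but no longer passed in some settings. This held for 13 named-gene values with no library block, 9 with DESeq2 and 8 without other-lineage cells, for example. The cause of these differences was not tested. Only 10 and 11 members set the day 14 values, so low genes there rest on a few UMIs.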
